A study of Mus musculus with 24 samples.

Results

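Troponin is the calcium switch of striated muscle, and the gastrocnemius libraries of sham and small mouse cage (SMC) mice were examined for its 8 genes. The set was taken by name from the symbols of the Ensembl gene identifiers: Tnnt1, Tnnt2 and Tnnt3 for troponin T, Tnni1, Tnni2 and Tnni3 for troponin I, and Tnnc1 and Tnnc2 for troponin C. All 8 were found among the 55416 genes of the count table, and 7 of them were among the 16408 genes with enough counts to be tested. Tnni3, the cardiac troponin I, had between 1 and 9 counts per library, 92 in all 24 libraries together, and was not tested.

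The study asked how 8 weeks of SMC housing, an acrylic box that restricts spontaneous movement, changes gene expression in adult muscle. There were 24 C56BL6J mice (spelled as in the labels) in 4 groups of 6, since males and females were each divided into sham and SMC. Sham mice were ambulatory. All mice were wild-type, were bought at 8 weeks of age, and were fasted for 4 hours and anesthetized with ketamine and xylazine before the muscle was taken. Sham and SMC mice were housed in pairs in some experiments and apart in others, and the sources used here do not say which holds for these animals. Total RNA was depleted of ribosomal RNA, and the values are read counts per gene. Total counts ranged from 23026627 to 36880413 per library, and Xist and Ddx3y went against the labelled sex in 0 of 24 libraries. A level is given below as CPM, the reads of a gene scaled to a fixed library total, with library sizes adjusted by the trimmed mean of M values (TMM).

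Troponin sits on the thin filament together with tropomyosin and actin. Troponin C binds calcium, troponin I holds back the myosin heads until calcium is bound, and troponin T fastens the complex to tropomyosin. Slow fibers use the set Tnnt1, Tnni1 and Tnnc1, of which Tnnc1 also serves the heart. Fast fibers use Tnnt3, Tnni2 and Tnnc2, whereas Tnnt2 and Tnni3 belong to the adult heart, with Tnnt2 also made in developing skeletal muscle. The mouse gastrocnemius is a mixed muscle made mostly of fast fibers, with a small slow portion.

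The windows around the start sites of the 3 slow genes, whose levels moved together over the libraries, are shown with that of their fast counterpart Tnnc2. Each runs from 250 bases before the start site to 50 bases after it on the gene's own strand and is taken from RefSeq on GRCm38.p6. The window of Tnnt1 is chr7:4515926-4516225 (minus strand), that of Tnni1 is chr1:135799171-135799470 (plus strand), that of Tnnc1 is chr14:31208062-31208361 (plus strand) and that of Tnnc2 is chr2:164779685-164779984 (minus strand). Tnni1 has 2 start sites in the RefSeq table, of which 1 is shown. Capitals mark matches to the E box (CANNTG), the MCAT element (CATTCC, or GGAATG on the other strand) and the TATA box (TATAAA).
Tnnt1: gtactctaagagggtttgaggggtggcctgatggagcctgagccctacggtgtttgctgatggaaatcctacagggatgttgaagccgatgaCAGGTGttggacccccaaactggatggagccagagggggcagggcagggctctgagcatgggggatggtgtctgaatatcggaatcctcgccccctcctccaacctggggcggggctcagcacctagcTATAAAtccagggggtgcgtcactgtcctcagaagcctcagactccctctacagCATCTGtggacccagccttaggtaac
Tnni1: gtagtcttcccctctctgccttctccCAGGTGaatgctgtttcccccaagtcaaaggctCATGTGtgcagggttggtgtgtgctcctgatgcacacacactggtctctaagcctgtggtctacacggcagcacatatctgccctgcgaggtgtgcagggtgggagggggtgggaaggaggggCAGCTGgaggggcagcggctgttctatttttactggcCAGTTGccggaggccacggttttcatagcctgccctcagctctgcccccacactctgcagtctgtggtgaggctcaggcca
Tnnc1: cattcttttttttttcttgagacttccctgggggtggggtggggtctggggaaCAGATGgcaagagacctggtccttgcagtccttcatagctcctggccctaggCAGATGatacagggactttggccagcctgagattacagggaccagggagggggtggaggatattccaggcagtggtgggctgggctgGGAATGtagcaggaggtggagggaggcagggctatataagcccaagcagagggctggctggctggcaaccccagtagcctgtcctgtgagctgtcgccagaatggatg
Tnnc2: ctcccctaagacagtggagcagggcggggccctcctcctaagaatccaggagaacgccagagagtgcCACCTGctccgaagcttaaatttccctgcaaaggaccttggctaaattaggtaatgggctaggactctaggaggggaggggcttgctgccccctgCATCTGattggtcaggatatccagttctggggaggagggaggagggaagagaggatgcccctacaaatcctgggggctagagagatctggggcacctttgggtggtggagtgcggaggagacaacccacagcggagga

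An E box, the element read by the myogenic factors, occurred 2 times in the windows of Tnnt1, Tnnc1 and Tnnc2 and 4 times in that of Tnni1. Of 32851 RefSeq windows of the same length, 72.3% hold an E box. The TATAAA of Tnnt1 begins at -30 from the start site, and 13.6% of all windows hold this motif. Tnnc1 has an MCAT match, the element bound by TEAD factors, at -58, and 14.7% of all windows hold one. None of the 4 windows held a match to the MEF2 motif, present in 3.19% of all windows, or to the CArG box, present in 1.63%. Both strands were searched, and a match is only a string of letters.

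The genes lie on 4 chromosomes and in pairs. Tnnt1 (ENSMUSG00000064179) and Tnni3 (ENSMUSG00000035458) are direct neighbors on chromosome 7. Tnni2 (ENSMUSG00000031097) and Tnnt3 (ENSMUSG00000061723) are also on chromosome 7, with Lsp1 as the only protein-coding gene between them. Tnni1 (ENSMUSG00000026418) and Tnnt2 (ENSMUSG00000026414) are on chromosome 1, separated by Lad1. Tnnc1 (ENSMUSG00000091898) on chromosome 14 and Tnnc2 (ENSMUSG00000017300) on chromosome 2 have no troponin beside them. Tnnt1 had a median of 93.5 CPM over the 24 libraries and its neighbor Tnni3 a median of 0.140 CPM. Lsp1, which is a leukocyte gene, had a median of 28 CPM between its fast troponin neighbors, which had medians of 2973 CPM (Tnni2) and 6434 CPM (Tnnt3). Tnni3 overlaps exons of Dnaaf3 on the same strand and Tnnc2 overlaps exons of Ube2c on the other strand. Reads there could be left uncounted or counted for either gene. Ube2c had at most 1.74 CPM, which does not show how many Tnnc2 reads the overlap affected.

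Per length, the fast genes were the most abundant troponins in this muscle. The median level over 24 libraries, in CPM per kilobase of merged exons, was 4064 for Tnnt3, 1986 for Tnni2 and 1489 for Tnnc2. The slow genes followed at 74.9 for Tnnc1, 42.4 for Tnnt1 and 19.3 for Tnni1, and the cardiac forms were at 0.168 for Tnnt2 and 0.0679 for Tnni3. The ranges over libraries did not overlap between Tnnt3 (3067 to 6307) and Tnni2 (1517 to 2919), but those of Tnni2 and Tnnc2 (1153 to 2295) did, as did those of the 3 slow genes. Exon lengths were from the GRCm38 annotation, and the troponin messages are alternatively spliced, so these per-length levels are approximate.

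Tnnt1, the slow troponin T, had a lowest, median and highest level of 1.03, 61.7 and 94.7 CPM in male sham mice and of 28.9, 96.4 and 137 CPM in male SMC mice. In females it was at 1.27, 95.6 and 139 CPM in sham and at 66.1, 128 and 193 CPM in SMC mice. The groups overlapped in both sexes, and 1 sham mouse of each sex lay far under all others.

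Tnni1, the slow troponin I, ran from 0.869 through a median of 38.8 to 82.1 CPM in male sham mice and from 20.4 through 74.6 to 97.7 CPM in male SMC mice. In female sham mice it ran from 0.244 through 63.1 to 106 CPM, and in female SMC mice from 59.5 through 108 to 157 CPM. Tnnc1, the slow and cardiac troponin C, was at 0.455, 50.6 and 94.0 CPM (lowest, median, highest) in male sham, at 25.4, 86.7 and 122 CPM in male SMC, at 0.390, 67.8 and 117 CPM in female sham and at 60.7, 117 and 193 CPM in female SMC mice. For all 3 slow genes the median was highest in female SMC mice, followed by male SMC, female sham and last male sham mice. Neighbors in this order overlapped in their levels.

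**Figure D1:**
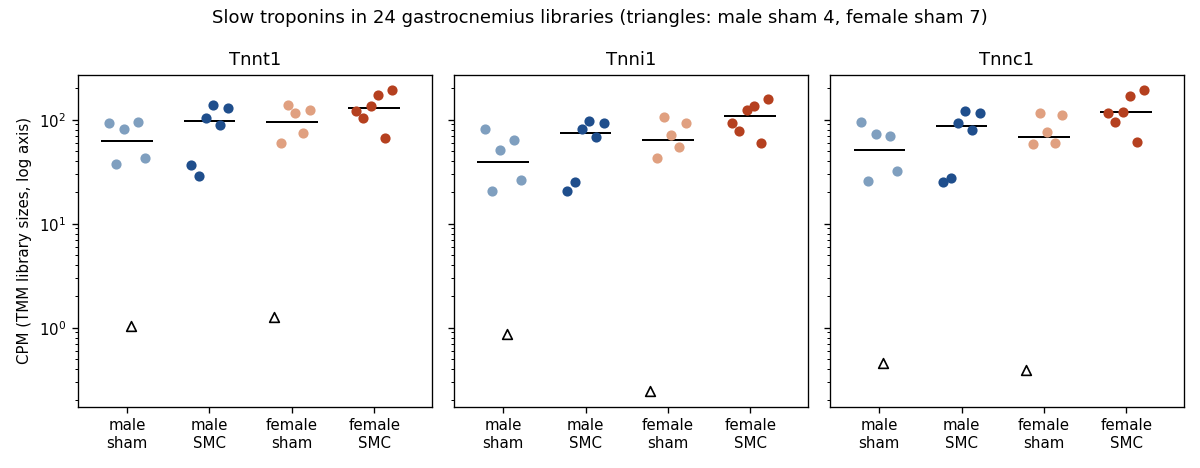
Slow troponin levels in CPM (vertical log axis) for each of 24 mice in the 4 groups (horizontal axis); lines are group medians over 6 mice, and the 2 open triangles are male sham replicate 4 and female sham replicate 7. The triangles lie between 0.244 and 1.27 CPM, while the other 22 mice lie between 20.4 and 193 CPM.

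Male sham replicate 4 and female sham replicate 7 held almost no slow troponin message. Male sham replicate 4 had 25 counts of Tnnt1 (95% exact Poisson interval 16.2 to 36.9), 21 of Tnni1 (13 to 32.1) and 11 of Tnnc1 (5.49 to 19.7) in a library of 25468810 counts. Female sham replicate 7 had 26 counts of Tnnt1 (17 to 38.1), 5 of Tnni1 (1.62 to 11.7) and 8 of Tnnc1 (3.45 to 15.8) in 24037639 counts. The intervals cover counting error only. The lowest of the other 22 libraries had 28.9 CPM of Tnnt1, 20.4 CPM of Tnni1 and 25.4 CPM of Tnnc1, so that even the upper bounds stay far under them.

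Other slow fiber genes were low in the same 2 mice. Myh7, the slow myosin heavy chain, was at 7.99 CPM in male sham replicate 4 and at 7.02 CPM in female sham replicate 7, against at least 275 CPM in each of the other 22. The calcium pump gene Atp2a2 was at 0.0920 and 0.0789 times the median of the other 22 libraries, and the slow tropomyosin Tpm3 at 0.120 and 0.0886 times. Myl6b, a myosin light chain, was at 0.795 and 0.864 times that median and so was not low in the same way, and Sln was at 3.18 times it in male sham replicate 4 and 0.185 times in female sham replicate 7. Fast troponins were high in these animals, with the highest Tnnt3 (9983 CPM), Tnni2 (4369 CPM) and Tnnc2 (1836 CPM) of all 24 in male sham replicate 4. In bulk muscle, fewer slow fibers and less slow message per fiber cannot be told apart, and which portion of the gastrocnemius was taken from each mouse is not given in the sources used here. Results that rest on these 2 mice are therefore also given without them.

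Without the 2 mice the slow genes still varied more than the fast ones. Over the remaining 22 libraries the highest level was 6.70 times the lowest for Tnnt1, 7.70 times for Tnni1 and 7.58 times for Tnnc1, against 1.6 times for both Tnnt3 and Tnni2 and 1.81 times for Tnnc2. The coefficient of variation was 44.4%, 49.4% and 50.1% for the slow genes and 13.2%, 11.8% and 16.1% for the fast genes in the same order.

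No slow troponin differed between SMC and sham mice beyond the spread between mice. In males the log2 fold change of SMC against sham was 0.58 (SE 0.66) for Tnnt1, 0.65 (SE 0.68) for Tnni1 and 0.65 (SE 0.70) for Tnnc1, with adjusted p-values of 0.808, 0.791 and 0.798. In females it was 0.62 (SE 0.66), 0.82 (SE 0.68) and 0.84 (SE 0.70), with adjusted p-values of 0.766, 0.685 and 0.688. The test was two-sided and came from the quasi-likelihood fit of edgeR with 6 mice per group, and p-values were adjusted by Benjamini-Hochberg over all 16408 genes. The 95% intervals were wide, from -0.78 to 1.94 for Tnnt1 in males and from -0.62 to 2.29 for Tnnc1 in females, so a change of a size within them cannot be told from none.

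The estimates were smaller without the 2 mice low in slow troponins. Leaving both out, the male fold changes on the log2 scale were 0.33 for Tnnt1, 0.39 for Tnni1 and 0.39 for Tnnc1, and the female ones were 0.36, 0.56 and 0.58. All 6 stayed above 0 and none passed (adjusted p by edgeR's quasi-likelihood test between 0.498 and 0.759). Averaged over the sexes, Tnnt1, Tnni1 and Tnnc1 were at 0.60, 0.73 and 0.75 in all 24 libraries (edgeR adjusted p 0.541, 0.458 and 0.466). Without the 2 mice these averages were 0.34, 0.47 and 0.49 (edgeR adjusted p 0.479, 0.351 and 0.341).

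The fast troponins had narrower intervals. Tnnt3, the fast troponin T, was at 4855, 6518 and 9983 CPM (lowest, median, highest) in male sham, 5507, 6806 and 7694 in male SMC, 5001, 5802 and 8846 in female sham and 5340, 6434 and 7752 CPM in female SMC mice. Its log2 fold change was -0.05 (95% interval -0.37 to 0.27) in males and 0.02 (-0.30 to 0.34) in females. The groups overlapped almost completely.

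Tnni2, the fast troponin I, was at 2557, 3092 and 4369 CPM in male sham, 2599, 3150 and 3254 in male SMC, 2271, 2624 and 3501 in female sham and 2446, 2812 and 3306 CPM in female SMC mice. Its log2 fold change was -0.11 (-0.36 to 0.14) in males and 0.04 (-0.21 to 0.29) in females. The highest level of each sham group was in a mouse low in slow troponins, and sham and SMC mice overlapped in both sexes.

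Tnnc2, the fast troponin C, gave the same estimate in both sexes. It was at 1036, 1296 and 1836 CPM in male sham and 922, 1214 and 1440 CPM in male SMC mice, and at 996, 1127 and 1670 CPM in female sham and 929, 1092 and 1215 CPM in female SMC mice. The log2 fold change was -0.20 (SE 0.14) in males and -0.20 (SE 0.14) in females, with adjusted p-values of 0.666 and 0.605 by edgeR's quasi-likelihood test. Averaged over the sexes, it was -0.20 (SE 0.10, 95% interval -0.41 to 0.01) with an unadjusted p of 0.0576 and an adjusted p of 0.304 by the same edgeR test, and -0.11 without the 2 low mice. Among the alternatives run, it passed only without a scaling factor (log2 fold change -0.32, edgeR adjusted p 0.0173), a setting in which the median of all genes tested was itself at -0.14.

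**Figure D2:**
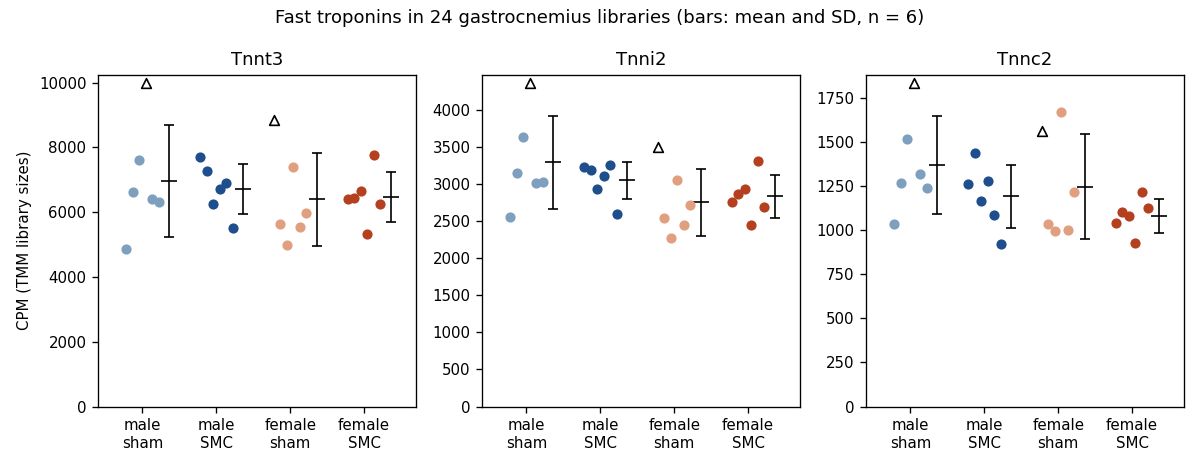
Fast troponin levels in CPM (vertical axes from 0, 1 scale per gene) for each of 24 mice in the 4 groups; bars are the mean and SD of 6 mice, and the 2 open triangles are male sham replicate 4 and female sham replicate 7. Sham and SMC mice overlap for each gene, and male sham replicate 4 has the highest level of all 3 genes.

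Tnnt2 was detected at 20 to 84 counts per library, or 0.738 to 3.02 CPM. The log2 fold change was -0.12 (SE 0.27) in males and -0.04 (SE 0.26) in females. Tnni3 had at most 0.289 CPM and gave no test. Of 5 other heart genes, Myl7, the atrial light chain, was at 0 in all 24 libraries and Nppa, the atrial peptide, at up to 0.0674 CPM. The other 3 were detected, with medians of 3.81 CPM (up to 10.6) for Myh6, the alpha myosin heavy chain, 6.58 CPM (up to 16.9) for Myl4, an atrial and embryonic light chain, and 1.5 CPM (up to 3.80) for Ryr2, a calcium release channel. In male sham replicate 4 and female sham replicate 7, the 2 mice low in slow troponins, Myh6 was at 0 and 0.0487 CPM. In the same 2 mice Myl4 was at 16.9 and 6.73 CPM and Ryr2 at 0.745 and 2.49 CPM. The sum of the 5 ranged from 6.21 to 20.2 CPM, and its part in the Tnnt2 values was not tested.

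Across the set, 0 of 7 tested troponins passed in males, where 0% of all genes passed at an adjusted p under 0.05. DESeq2 called 133 genes and limma 93 in males, none of them a troponin. In females 0 of 7 passed, against 0.341% of all genes (0.122% higher and 0.219% lower), and averaged over the sexes 0 of 7 passed, against 2.36% (1.03% higher and 1.33% lower). An unadjusted p under 0.05 occurred for 0 of the 7 in males, in females and in the average, where 11%, 12.5% and 17.5% of all genes had one. For the difference of the response between the sexes 0 of 7 passed, against 0% of all genes (5.13% at an unadjusted p under 0.05). By DESeq2 1 gene passed for this difference, and it was no troponin. Sham and SMC levels overlapped for all 7 genes in each sex, whereas 0.902% of all genes in males and 1.03% in females had groups of 6 that did not overlap. The median log2 fold change of all genes tested was -0.00441 in males and -0.011 in females.

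**Figure D3:**
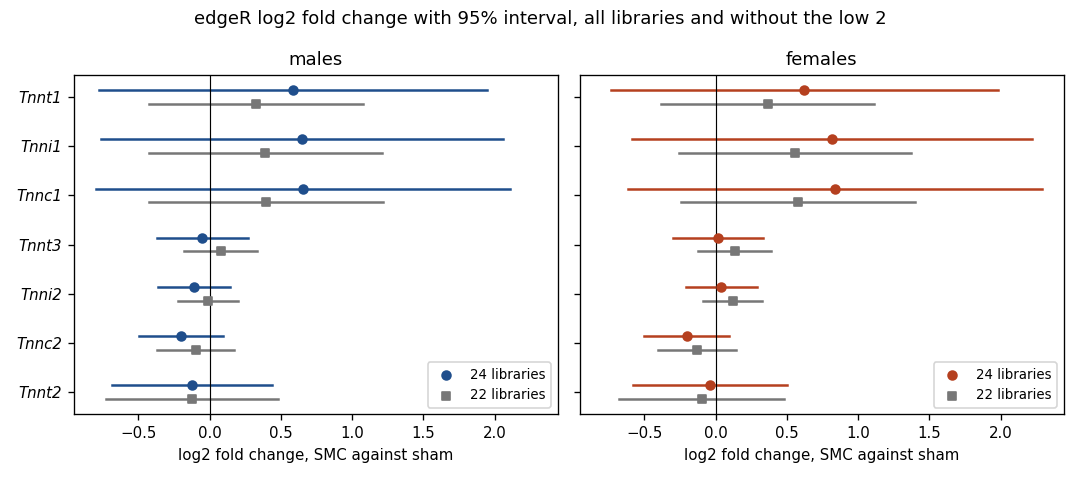
Log2 fold change of SMC against sham (horizontal axis) for 7 troponin genes (vertical axis) in males and females, with 95% intervals from edgeR; circles are all 24 libraries and squares are the 22 without male sham replicate 4 and female sham replicate 7. Every interval includes 0, and those of the slow genes are shorter without the 2 mice.

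In sham mice, males and females were also compared. Tnnt1, Tnni1 and Tnnc1 were lower in males by estimate, at log2 differences of -0.56 (SE 0.66), -0.58 (SE 0.68) and -0.52 (SE 0.70), with edgeR adjusted p-values of 0.724, 0.724 and 0.766. Tnni2 was 1.2-fold higher in males, a log2 difference of 0.26 (SE 0.12) with an unadjusted p of 0.0449 and an edgeR adjusted p of 0.306, so it did not pass. Of all genes, 15.5% had p below 0.05 before adjustment here and 1.97% after it (0.835% higher and 1.14% lower in males). Levels of sham males and females overlapped for all 7 troponins, against 1.13% of all genes with no overlap. Without the 2 low mice the slow gene differences were -0.56, -0.58 and -0.52 with smaller SEs of 0.38, 0.41 and 0.41. Those mice were left out for their low slow troponins, so smaller SEs follow from that choice. In this fit 0 of 7 passed, against 534 of 16408 genes.

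A ratio of a slow to a fast gene within 1 library needs no scaling and was taken next. In male sham mice there were 0.106 to 19 counts of Tnnt1 for every 1000 of Tnnt3, and in male SMC mice 3.98 to 23.3. In females the numbers were 0.146 to 27.8 in sham and 8.53 to 32.4 in SMC mice. The corresponding log2 ratios had means of -7.70 ± 2.77 (SD, n = 6) in male sham, -6.49 ± 1.09 in male SMC, -7.05 ± 2.83 in female sham and -5.69 ± 0.71 in female SMC mice.

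For Tnni1 per 1000 Tnni2 the range was 0.204 to 32.1 in male sham, 6.31 to 35.8 in male SMC, 0.0766 to 46.5 in female sham and 18 to 58.2 in female SMC mice. For Tnnc1 per 1000 Tnnc2 it was 0.259 to 90.7, 19 to 126, 0.266 to 117 and 49.9 to 184 in the same order of groups. The troponin C pair thus had the largest slow share by counts in all 4 groups. In males 4 of 6 SMC mice lay above the median of the sham mice for each of the 3 ratios, and in females 5 of 6.

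The differences between SMC and sham did not exceed the spread. The mean log2 ratio was higher in SMC mice by 1.22 for Tnnt1/Tnnt3, 1.36 for Tnni1/Tnni2 and 1.63 for Tnnc1/Tnnc2 in males, with exact permutation p-values of 0.418, 0.292 and 0.249. In females it was higher by 1.35, 1.84 and 1.98, with exact permutation p-values of 0.286, 0.139 and 0.0693. After Benjamini-Hochberg adjustment over the 6 two-sided exact tests, p lay between 0.351 and 0.418, while the smallest p that 6 against 6 mice allow is 0.00216.

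Most of this difference rested on 1 sham mouse per sex. Without male sham replicate 4 the male differences were 0.12, 0.34 and 0.41, with exact permutation p-values of 0.835, 0.584 and 0.498. Without female sham replicate 7 the female ones were 0.22, 0.43 and 0.65, with exact permutation p-values of 0.571, 0.277 and 0.139. In the other direction, Tnnc1/Tnnc2 in females reached an unadjusted exact permutation p of 0.0303 when either female sham replicate 9 (difference 2.40) or female SMC replicate 23 (difference 2.21) was left out. The male and female differences could not be told apart (permutation p of 0.926, 0.780 and 0.829 for the 3 ratios, 100000 resamples, two-sided).

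**Figure D4:**
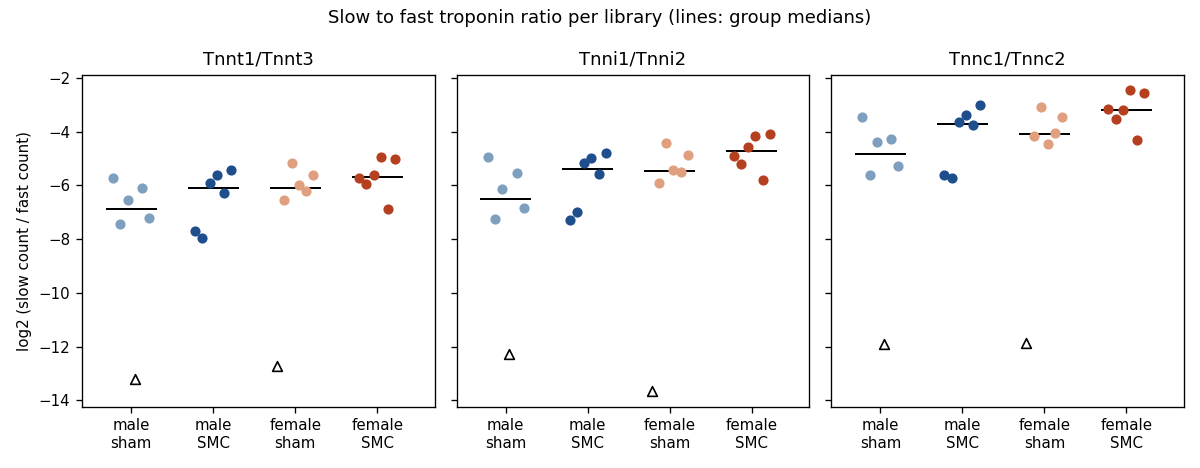
Log2 ratio of slow to fast counts (vertical axis) for the troponin T, I and C pairs in each of 24 mice; lines are group medians and open triangles are male sham replicate 4 and female sham replicate 7. The triangles lie between -13.67 and -11.88, and all other mice lie between -7.97 and -2.44.

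The slow genes moved as a block from mouse to mouse. Over the 22 libraries without the 2 low mice, log2 levels of Tnnt1 and Tnni1 had a Pearson r of 0.975 (Spearman rho 0.971), Tnnt1 and Tnnc1 an r of 0.978 (rho 0.966) and Tnni1 and Tnnc1 an r of 0.987 (rho 0.985). Each had a permutation p of 1e-05, the smallest that 100000 resamples can give, and an adjusted p of 2.25e-05 over the 9 pairs examined. All 3 were positive within each of the 4 groups, from 0.904 to 0.997. Without the 2 libraries farthest from the median of the first gene they were 0.975, 0.973 and 0.980.

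The fast genes, whose levels spanned a narrower range, had lower correlations. Tnnt3 and Tnni2 had an r of 0.914 (rho 0.922, permutation p 1e-05 for both, adjusted p 2.25e-05). Tnnc2 had an r of 0.747 with Tnnt3 (rho 0.732, permutation p 5e-05 and 0.00021) and of 0.755 with Tnni2 (rho 0.782, permutation p 6e-05 and 5e-05), with adjusted p-values of 9e-05 for r. Both were positive within each of the 4 groups. After subtraction of the group means, r was 0.974 for Tnnt3 with Tnni2, 0.878 for Tnnt3 with Tnnc2 and 0.849 for Tnni2 with Tnnc2, and 0.971 to 0.983 for the slow pairs. The SD of the log2 difference between partners was 0.0789, 0.150 and 0.146 for the fast pairs and 0.136 to 0.207 for the slow pairs, so by this measure Tnnt3 and Tnni2 kept the steadiest ratio of the 6.

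Slow and fast partners ran weakly against each other over the 22 libraries pooled. Pearson's r was -0.40 for Tnnt1 and Tnnt3 (rho -0.42, permutation p 0.0659 and 0.0496), -0.48 for Tnni1 and Tnni2 (rho -0.55, p 0.0247 and 0.00884) and -0.46 for Tnnc1 and Tnnc2 (rho -0.44, p 0.0331 and 0.0427). The adjusted permutation p-values for r were 0.0659, 0.0317 and 0.0373. Within groups the sign was not uniform, since Tnnt1 with Tnnt3 and Tnnc1 with Tnnc2 were at 0.12 and 0.05 in female sham mice. Tnni1 with Tnni2 was at -0.08 there. For the pairs in the order above, r was -0.25, -0.37 and -0.12 in male sham mice. It was -0.76, -0.56 and -0.64 in male SMC and -0.82, -0.76 and -0.62 in female SMC mice. After subtraction of the group means, r was -0.45, -0.43 and -0.33. Without the 2 libraries farthest from the median, the pooled r was -0.22, -0.40 and -0.45. All levels of a library share 1 total.

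By Spearman's rho over the 22 libraries, the 3 genes most like Tnnt1 among 16401 other genes were Myh7 (0.986), Tpm3 (0.974) and Atp2a2 (0.971). The same 3, in the same order, headed the list of Tnni1 (0.971, 0.968 and 0.948) and that of Tnnc1 (0.963, 0.958 and 0.946). They encode the slow myosin heavy chain, the slow tropomyosin and the calcium pump of slow fibers. Among 32 regulators of fiber type, the highest rho was that of Prox1 and the lowest that of Eya4, chosen after its values were seen. Prox1, a transcription factor of slow fibers, was at 0.834 with Tnnt1, 0.863 with Tnni1 and 0.874 with Tnnc1. The transcriptional cofactor Eya4 was at -0.74, -0.73 and -0.69. With Tnnt1 the others lay from -0.53 (Tbx15) to 0.69 (Vgll2), with Nfatc1 at 0.31 and Ppard at 0.07.

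Tnnt3 was most like Myl1, a fast myosin light chain (0.829), Myoz1, a Z-disc gene of fast fibers (0.822), and ENSMUSG00000118449, which had no symbol (0.822). Tnni2 was most like Myoz1 (0.904), Ggact (0.853) and Golm1 (0.852). For Tnnc2 the leading genes were Htatsf1 (0.792), Rbm17 (0.780) and Vti1b (0.762), which encode no sarcomere proteins, and for Tnnt2 they were Prkx (0.788), Stk16 (0.761) and Tgfb3 (0.727). Tnnt2 had only 20 to 84 counts per library, so counting error is not small in its rho values. Of the 21 places, 17 were kept in the first 3 when all 24 libraries were used. The chromosomal neighbors were less alike, with rho from -0.470 (Phlda3 with Tnni1) to 0.390 (Lad1 with Tnni1). Lsp1 had a rho of 0.330 with Tnnt3 and 0.224 with Tnni2.

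The other genes of the thin filament gave the setting of these values. Of 20 (actins, tropomyosins, nebulins, their capping and folding partners), 0 passed in males and 0 in females by edgeR (2 and 3 at an unadjusted p under 0.05, against 11% and 12.5% of all genes), with median log2 fold changes of 0.03 and 0.13, or 0.05 and 0.16 without the 2 low mice. Tpm3 was at 0.55 in males and 0.54 in females, and at 0.34 and 0.30 without the 2 low mice. Xirp1 was at -0.71 in males and Nebl at -0.87 in females, and neither passed (edgeR adjusted p 0.573 and 0.219).

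Of 14 slow fiber partners, 0 passed in either sex by edgeR (2 in each at an unadjusted p under 0.05, against 11% and 12.5% of all genes). The median log2 fold change was -0.14 in males and 0.32 in females, and -0.37 and 0.13 without the 2 low mice. Averaged over the sexes 1 of the 14 passed, against 2.36% of all genes. This was Myl6b, at 0.45 (SE 0.10, edgeR adjusted p 0.0175). Without the 2 low mice 2 passed, against 3.35% of all genes: Myl6b, at 0.45 (edgeR adjusted p 0.0264), and Csrp3, a Z-disc stretch sensor, at -1.19 (edgeR adjusted p 0.0342, and -0.95 with 0.270 in all 24). Myh7 was at 0.78 (SE 0.73) in males and 0.76 (SE 0.72) in females, and at 0.52 and 0.50 without the 2 mice. By sex, Csrp3 was at -1.12 and -0.77 (without them -1.36 and -1.03) and Myh7b at 1.02 and 0.16 (without them 0.77 and -0.09). Sln, a small inhibitor of the calcium pump that was high in male sham replicate 4, was at -1.04 and 0.98, and at -0.64 and 0.78 without the 2 mice. None of these 4 passed in either sex, and the sex difference in the response of Sln had an edgeR adjusted p of 0.926.

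Of 14 fast fiber partners, 0 passed in either sex or in the average by edgeR (1, 0 and 1 at an unadjusted p under 0.05, against 11%, 12.5% and 17.5% of all genes), with medians of 0.01 in males and 0.15 in females, or 0.20 and 0.30 without the 2 low mice. Without them 1 of 14 passed in the average, against 3.35% of all genes. This was Casq1, the calcium store protein of fast fibers, at 0.34 (edgeR adjusted p 0.0390, and 0.28 with 0.138 in all 24). Myh1, the IIX myosin, was at 0.49 and 0.35 (without them 0.30 and 0.15), and Myh2, the IIA myosin, at -0.27 and 0.10 (without them -0.53 and -0.15). The 2 mice low in slow troponins were also low in Myh2, at 161.7 and 164.9 CPM against a median of 3880 CPM over the 24 libraries, and in Myh1, at 908.5 and 1222 CPM against a median of 4737 CPM. Of 32 regulators of fiber type, 0 passed in either sex by edgeR (8 in males and 5 in females at an unadjusted p under 0.05, against 11% and 12.5% of all genes), with medians of 0.09 and 0.10, both 0.12 without the 2 low mice. Averaged over the sexes, 2 of 32 were higher in SMC mice, against 1.03% of all genes: Nfatc1 at 0.28 (SE 0.06, edgeR adjusted p 0.0226) and Nfatc2 at 0.45 (SE 0.11, edgeR adjusted p 0.0367), which encode calcineurin-regulated factors. Without the 2 low mice Nfatc1 still passed (0.27, edgeR adjusted p 0.0360), Nfatc2 did not (0.37, adjusted p 0.0565), and Sox6, a repressor of slow fiber genes, passed at 0.23 (adjusted p 0.0408, and 0.17 with 0.177 in all 24), where 1.77% of all genes were called higher. Prox1 was at 0.61 in males and 0.64 in females, with an adjusted p of 0.0571 in the average.

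Ratios of 8 other slow to fast pairs, from myosins to alpha-actinins, were taken in the same libraries. In each pair both low mice were below all other 22, by a gap that differed between pairs. It was wide for log2 Myh7/Myh4, at -13.02 and -13.49 against -7.82 to -4.51 in the others. It was narrow for Casq2/Casq1, at -7.96 and -8.90 against a lowest other value of -7.65, and for Mybpc1/Mybpc2, at -4.76 and -3.73 against -3.62. The mean log2 ratio was higher in SMC mice for 4 of 8 pairs in males and 8 of 8 in females, but without the low mice for 1 of 8 and 3 of 8. All 3 troponin ratios stayed above 0 in both sexes without them. Of the 8 other pairs, Myh7/Myh4 did so too, at 0.07 in males and 0.18 in females, against 0.12 and 0.22 for Tnnt1/Tnnt3. Myl3/Myl1, chosen after its values were seen, was at -0.74 in males and -0.43 in females without the low mice, against 0.41 and 0.65 for Tnnc1/Tnnc2. The difference between the troponin pairs and the other pairs was not tested.

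**Figure D5:**
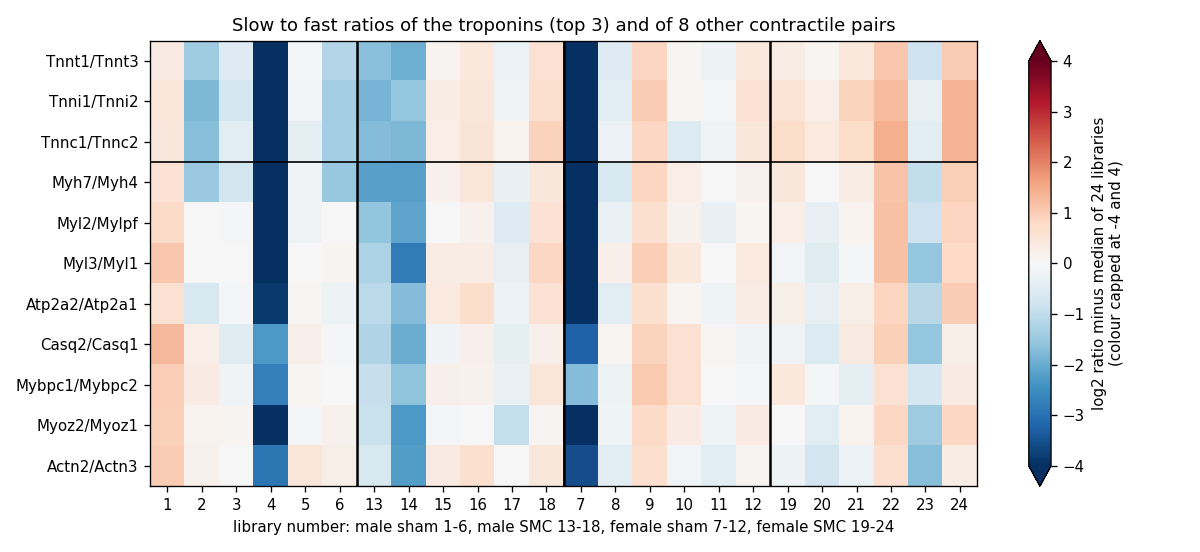
Log2 ratio of slow to fast counts for 3 troponin pairs and 8 other contractile pairs (rows), each minus its median of 24 libraries, by library (columns, by group); the color scale is capped at -4 and 4. Male sham replicate 4 and female sham replicate 7 are the lowest columns in every row, and male SMC replicates 13 and 14 and female SMC replicate 23 are also below the median in every row.

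Markers of other cell types were read in the same libraries. Skeletal fiber markers were abundant in all 24, with sums of 64160 to 130720 CPM over 6 genes. The summed level of 4 smooth muscle genes was 117 to 155 CPM in male sham and 185 to 286 CPM in male SMC mice, which do not overlap, and 127 to 185 and 165 to 254 CPM in female sham and SMC mice. All 4 passed in the average over the sexes, where 2.36% of all genes did, and 0 of 4 in either sex. Of single genes, 0.902% in males had groups that did not overlap. The sum of 3 tendon genes was 154 to 284 CPM in male sham, 137 to 282 in male SMC, 186 to 709 in female sham and 121 to 364 CPM in female SMC mice. The 2 low mice had 3.39 and 2.73 CPM of 3 satellite cell markers, the lowest of their groups, and 192 and 146 CPM of 3 endothelial markers, also the lowest. Their macrophage marker sums, 18.8 and 10.6 CPM, were the lowest of their groups as well, and the adipocyte marker sum of male sham replicate 4, 37 CPM, was the highest of its group. Their part in the troponin values was not tested.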

How the data were processed

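The authors isolated total RNA from gastrocnemius muscle (Direct-zol RNA Miniprep Plus), made directional libraries after ribosomal RNA depletion (NEBNext Ultra II) and deposited raw counts per Ensembl gene, 1 column per mouse, with no normalization. Per the submitters' processing notes the tools were cutadapt 1.16, STAR 2.7.9a, featureCounts 1.6 and DESeq2 1.34.0, with build GRCm39. The annotation release and the strand setting are not given in the sources used here. Genes without a symbol held 0.361% of counts.

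Groups came from the sex and treatment in the labels. Counts of genes kept by filterByExpr were normalized by TMM and fitted with edgeR's quasi-likelihood model (edgeR 4.0.16, R 4.3.3), with 1 mean per group over all 24 mice. Contrasts were two-sided, with a Benjamini-Hochberg adjusted p under 0.05 as the threshold, and the script was tested on simulated data. Log2 CPM used a prior count of 2. Ratios were log2 of (slow count + 0.5) over (fast count + 0.5), tested by exact permutation over 924 relabelings (scipy 1.17.1). All 60 pairs of libraries within groups differed by more than sampling noise (smallest chi-square per degree of freedom 10.7). The spread between mice enters all tests, since edgeR estimates it from the mice within groups and the permutation tests exchange values between mice. At a depth of 23026627 to 36880413 counts, counting error is small for all troponins but Tnnt2, Tnni3 and the slow genes in 2 mice. Alternatives were DESeq2 1.42.0, limma 3.58.1 with voom and sample weights, other filters, no scaling factor, fits on the 2 groups alone, each mouse left out, another ratio offset, medians and a summed fast partner.

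Start site windows, exon lengths and neighbors were from GRCm38 tables, so no gene coordinates on GRCm39 are given, and Tnnt3 and Tnni2 windows were not used here. The genes named were the 8 troponins, the 3 genes most like each, the nearest neighbors, and from each list those that passed and those at the extremes of the fold changes. Members and lists were chosen with earlier results of these data known, among them the 2 libraries low in slow fiber genes.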

Additional observations from a re-analysis of the deposited data

Results flagged for a closer look

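Of 44 groups of 6 values examined by Dixon's test at the 95% level, 12 held a value far from the other 5. Chance gives about 1 in 20, or 2.2. The 2 mice concerned were known to stand apart beforehand, so the count cannot be weighed against chance. All 12 were slow troponin values or ratios, in the same 2 mice, so they are not independent of each other. In male sham replicate 4 the log2 CPM was 0.15 for Tnnt1 (5.24 to 6.57 in the other 5), -0.088 for Tnni1 (4.37 to 6.36) and -0.92 for Tnnc1 (4.70 to 6.56). In female sham replicate 7 it was 0.42 for Tnnt1 (5.91 to 7.12), -1.66 for Tnni1 (5.41 to 6.72) and -1.11 for Tnnc1 (5.87 to 6.87).

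The log2 ratios of male sham replicate 4 were -13.21 for Tnnt1/Tnnt3 (-7.45 to -5.71 in the other 5), -12.26 for Tnni1/Tnni2 (-7.26 to -4.96) and -11.91 for Tnnc1/Tnnc2 (-5.62 to -3.46). Those of female sham replicate 7 were -12.74 (-6.56 to -5.17), -13.67 (-5.90 to -4.43) and -11.88 (-4.46 to -3.09). The fast troponins and Tnnt2 gave no such value in any group.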

How the results depend on the processing

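No paired analysis was possible because the replicate numbers run from 1 to 24 and the groups share none. Of 1061 fits of single troponins under all alternatives, 1 passed, Tnnc2 averaged over the sexes without a scaling factor (-0.32). No other single troponin crossed the threshold. Of the ratios, Tnnc1/Tnnc2 in females passed before adjustment without female sham replicate 9 (2.40) or female SMC replicate 23 (2.21), and no other ratio did under the alternatives run.

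Counts of genes called moved with the setting. DESeq2 called 133 in males, 268 in females, 778 in the average, 1 for the sex difference of the response and 575 between sham males and females, and it put Tnnc2 at -0.0050 in that sex difference. Limma with sample weights called 93 in males and 16 in females, with Tnnt3 at 0.019 in males and 0.029 in the average, Tnnt2 at 0.0042 in females, Tnni2 at 1.03e-04 in the average and Tnnt1 at 0.060 in the sex difference. Without a filter 189 were called in the average, with Tnnc2 at -0.020 in the sex difference. Without scaling, 215 were called in females (13 higher, 202 lower), 1861 in the average (68 higher, 1793 lower) and 179 between sham groups, and in females Tnnt3 was at -0.10 and Tnni2 at -0.084. With only the groups compared, 14 were called in females and 61 between sham groups. Without male sham replicate 4 and female sham replicate 7, 167 were called in females and 534 between sham groups, and Tnnt3 was at 0.079 in males and 0.11 in the average and Tnni2 at 0.055 in the average. The cause was not tested.

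Leaving out 1 mouse at a time gave 0 to 68 genes in males (68 without male sham replicate 5), 0 to 146 in females (146 without male sham replicate 4), 200 to 499 in the average, 0 to 1 for the sex difference and 188 to 501 between sham groups. Ratio differences ranged in males from 0.12 to 1.62 (Tnnt1/Tnnt3), 0.34 to 1.80 (Tnni1/Tnni2) and 0.41 to 2.10 (Tnnc1/Tnnc2), and in females from 0.22 to 1.73, 0.43 to 2.28 and 0.65 to 2.40. Single troponins that changed sign ranged as follows. Tnnt3 lay at -0.14 to 0.079 in males, -0.044 to 0.13 in females and -0.061 to 0.049 in the average, Tnni2 at -0.0097 to 0.12 in females and -0.068 to 0.015 in the average, and Tnnt2 at -0.20 to 0.21 in females and -0.18 to 0.040 in the average. For the sex difference of the response Tnnt1 lay at -0.30 to 0.22, Tnni1 at -0.42 to 0.16, Tnnc1 at -0.44 to 0.11, Tnnt3 at -0.18 to 0.061, Tnnc2 at -0.098 to 0.11 and Tnnt2 at -0.33 to 0.072. Between sham groups Tnnt3 lay at -0.0080 to 0.24.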

Other observations

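Within the fast complex, the median amount of Tnnc2 relative to each partner was lower in SMC than in sham mice of the same sex. The ranges of sham and SMC mice overlapped for both partners in each sex. It is given as values only, since it was noticed in these data. There were 0.408 to 0.545 counts of Tnnc2 for each count of Tnni2 in female sham mice (median 0.442) and 0.368 to 0.418 in female SMC mice (median 0.378). In males the range was 0.403 to 0.439 in sham mice (median 0.412) and 0.334 to 0.452 in SMC mice (median 0.394). Relative to Tnnt3, Tnnc2 had medians of 0.198 in male sham, 0.177 in male SMC, 0.192 in female sham and 0.167 in female SMC mice. Tnni2 relative to Tnnt3 had medians of 0.478, 0.467, 0.446 and 0.436 in the same order.

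Within the slow complex there were 0.956 to 1.42 counts of Tnnc1 for each count of Tnni1 over the 22 mice that had slow troponins in quantity. This ratio was 0.524 in male sham replicate 4 (11 and 21 counts) and 1.6 in female sham replicate 7 (8 and 5 counts). The ratio of Tnni1 to Tnnt1 was 0.545 to 0.913 over the same 22 mice and 0.84 in male sham replicate 4 (21 and 25 counts). In female sham replicate 7 it was 0.192, which rests on 5 and 26 counts.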
